A study of Mus musculus with 12 samples.

Results

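Glutathione S-transferase transcripts were examined in mouse liver for 10 genes, Gsta1, Gsta2, Gsta3, Gsta4, Gstm1, Gstm2, Gstm3, Gstm4, Gstp1 and Gstt1. They were taken by symbol from a gene count table of 55421 rows, and all 10 were among the 14076 genes that passed the filter on low counts. The livers came from adult male C57BL/6 mice of 2 closely related transgenic strains, Fra1hep and Fra2hep, in which doxycycline was withdrawn at 3 weeks of age. In the mutants the withdrawal starts a transgene for Fra-1 (gene Fosl1) or Fra-2 (gene Fosl2), members of the AP-1 family of transcription factors, which bind DNA as dimers of Fos-type and Jun-type proteins. Controls were littermates of each strain that shared the cage and underwent the same withdrawal, so all 4 groups had doxycycline removed. No source used here gives the alleles that the controls carry or the promoter that drives the transgene. Each group had 3 mice, and each mouse gave 1 polyadenylated-RNA library. The titles place all samples 2 months after induction, whereas the treatment label of the Fra2hep mutants gives 9 months, so age and genotype cannot be told apart in that comparison if the label is right. The study compared mutants with controls within each strain.

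Glutathione S-transferases join the tripeptide glutathione to electrophilic drugs, carcinogens and products of lipid peroxidation, which makes these compounds easier to export and excrete. The cytosolic enzymes are dimers and are grouped by sequence into alpha (Gsta), mu (Gstm), pi (Gstp) and theta (Gstt) classes, among others. They are abundant in hepatocytes, and several of their genes are known to respond to foreign compounds and oxidants through the transcription factor Nrf2, which binds antioxidant response elements as a dimer with small Maf proteins.

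The libraries held 16834041 to 20464807 counts each. Fosl1 stood at 9.41, 10.2 and 12.8 CPM (counts scaled to library size with TMM factors) in the Fra1hep mutants and at 0, 0 and 0.0538 in their controls. It passed the edgeR quasi-likelihood test (adjusted p = 0.000318), and with so few control counts no fold change is given. Fosl2 stood at 398, 421 and 421 CPM in the Fra2hep mutants and at 12.2, 48.1 and 16.0 in their controls (log2 fold change 4.02 ± 0.44, SE, edgeR adjusted p = 0.00185). Both mutant groups therefore carried the transcript that their label names. The labels describe the tissue as mostly hepatocyte, and 7 of the 8 hepatocyte markers listed were in the table under their symbol, with a summed level of 61825 to 130785 CPM per library.

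The genes lie in 5 places in the genome (GRCm38, GENCODE M21). Gsta4 (chromosome 9, 78182774 to 78209349, plus strand), Gsta1 (78230656 to 78242684, plus) and Gsta2 (78331018 to 78355788, minus) share a stretch of 173.0 kb, together with the near-identical copies Gm3776 and Gm10639. Gstm3 (chromosome 3, 107963696 to 107969283, minus strand), Gstm2 (107981702 to 107986453), Gstm1 (108012255 to 108017973) and Gstm4 (108040408 to 108044894) follow each other within 81.2 kb, all on the minus strand. Gsta3 lies apart from its class on chromosome 1 (21240589 to 21265661, plus strand), where the annotated gene Gm28836 overlaps it on the other strand. Gstp1 is on chromosome 19 (4035407 to 4037985, minus strand) and Gstt1 on chromosome 10 (75783813 to 75798584, minus strand).

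Reads from near-identical copies may be counted for the wrong gene, so the start of the coding sequence is shown for the alpha genes that rose and for the nearest pair of mu genes. Sequences are bases 1 to 90 of the coding sequence, 5′ to 3′, from the GENCODE M21 transcripts. Capitals mark bases that differ from Gsta1 in the alpha set or from Gstm1 in the mu set.
Gsta1: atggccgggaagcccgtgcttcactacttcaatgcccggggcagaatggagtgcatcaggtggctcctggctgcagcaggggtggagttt
Gsta2: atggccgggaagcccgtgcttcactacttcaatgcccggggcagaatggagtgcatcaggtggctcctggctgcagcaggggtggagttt
Gm3776: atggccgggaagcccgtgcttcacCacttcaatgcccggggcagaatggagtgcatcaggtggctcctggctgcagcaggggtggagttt
Gstm1: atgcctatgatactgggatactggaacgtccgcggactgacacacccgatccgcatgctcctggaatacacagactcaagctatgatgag
Gstm3: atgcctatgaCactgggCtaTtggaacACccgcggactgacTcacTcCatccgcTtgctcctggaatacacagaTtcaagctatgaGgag
Over this window Gsta2 differed from Gsta1 at 0 bases and Gm3776 at 1, whereas Gstm3 differed from Gstm1 at 11. Over the whole aligned coding sequence Gsta1 was identical to Gsta2 at 655 of 672 positions (97.5%) and to Gm3776 at 99.7%, but to Gsta3 at only 73.8% and to Gsta4 at 66%. Among the mu genes, Gstm1 matched Gstm3 at 89.5%, Gstm2 at 86% and Gstm4 at 80.2% of positions. Gstp1 matched its neighbour Gstp2 at 98.1%.

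The consequence for counting was described by the share of each gene's transcript stretches of 50 bases that also occur in transcripts of another gene. This share was 90.5% for Gsta1, 49.8% for Gsta2, 33.7% for Gstp1, 28.8% for Gstm3, 18.9% for Gstm1, 5.65% for Gstm2 and 0.273% for Gsta3. It was 0 for Gsta4, Gstm4 and Gstt1. With stretches of 75 bases it was 84.7% for Gsta1 and 36.6% for Gsta2. No source used here says how the authors' counting assigned reads shared by such genes, so counts of Gsta1, and to a lesser extent of Gsta2, Gstp1, Gstm3 and Gstm1, are uncertain as values of single genes. Class sums are therefore also given. The mu sum leaves out Gstm2-ps1 and Gm8834, which share 11% and 16% of the 50-base stretches of Gstm3. They share 14.1% and 5.86% of those of Gstm1.

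**Figure D1:**
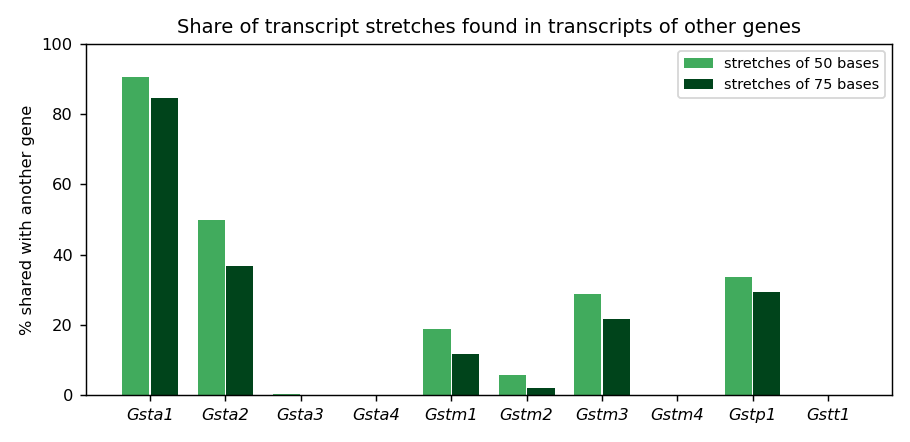
Share of the transcript stretches of each gene that occur in transcripts of another gene (y axis, %), for stretches of 50 bases (light bars) and 75 bases (dark bars), from GENCODE M21. Gsta1 shares 90.5% of its 50-base stretches, Gsta2 49.8%, and Gsta4, Gstm4 and Gstt1 share 0.

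Promoters are shown for Gsta1 and Gsta2, whose counts moved together in the Fra1hep mutants, and for Gstp1, which holds a match to the AP-1 motif. Each is the 250 bases before the transcription start in RefSeq (GRCm38.p6), 5′ to 3′ on the gene's strand, where 9 of the 10 members had an entry. The Gsta2 window lies inside the GENCODE M21 span of the gene (78331018 to 78355788), so it is not upstream of that annotated start. The Gsta1 and Gstp1 windows run in part into the spans of their genes (78230656 to 78242684 and 4035407 to 4037985). The motif match in Gstp1 lies across the annotated GENCODE start of that gene. In the Gsta1 and Gsta2 sequences the capitals mark the longest run that both share, and in Gstp1 they mark the motif match.
Gsta1, chr9:78230419-78230668, plus strand: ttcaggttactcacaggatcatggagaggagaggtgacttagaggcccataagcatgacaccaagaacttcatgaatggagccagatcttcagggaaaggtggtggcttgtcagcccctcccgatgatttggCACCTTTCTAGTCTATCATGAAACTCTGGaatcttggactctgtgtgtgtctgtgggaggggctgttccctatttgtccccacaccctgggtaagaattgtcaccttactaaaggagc
Gsta2, chr9:78347146-78347395, minus strand: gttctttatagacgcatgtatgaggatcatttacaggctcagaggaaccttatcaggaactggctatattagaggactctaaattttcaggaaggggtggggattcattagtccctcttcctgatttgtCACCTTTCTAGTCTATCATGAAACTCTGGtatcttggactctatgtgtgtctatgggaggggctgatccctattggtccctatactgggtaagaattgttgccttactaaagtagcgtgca
Gstp1, chr19:4037913-4038162, minus strand: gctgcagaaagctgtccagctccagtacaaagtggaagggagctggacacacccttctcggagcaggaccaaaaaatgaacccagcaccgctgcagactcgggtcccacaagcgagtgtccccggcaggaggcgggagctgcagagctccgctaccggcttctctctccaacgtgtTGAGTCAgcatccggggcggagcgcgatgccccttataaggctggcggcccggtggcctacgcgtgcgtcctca
The Gsta1 and Gsta2 windows were identical at 184 of 261 aligned positions (70.5%), and their longest shared run was 29 bases, from -118 to -90 in Gsta1 and from -121 to -93 in Gsta2. Both strands were searched for the AP-1 motif TGANTCA, for its CRE-type form TGACGTCA and for the core of the antioxidant response element, TGACNNNGC. Among the members, Gstp1 held TGAGTCA at -74 to -68 and Gsta3 held TGACATTGC at -121 to -113, and no other window held a match. Of 32817 RefSeq promoter windows of the same length, 6.75% held TGANTCA, 1.55% TGACGTCA and 10.2% TGACNNNGC. A match describes the letters of the window only.

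In the Fra1hep mutants, 3 of the 10 members rose and 0 fell (edgeR quasi-likelihood test, Benjamini-Hochberg adjusted p under 0.05 over all 14076 genes). Those that rose were Gsta1 and Gsta2 of the alpha class and Gstm3 of the mu class. Of all genes tested in this strain, 2.9% were called higher and 0.938% lower. At an unadjusted p under 0.05 the members numbered 4 higher and 2 lower (9.95% and 6.36% of all genes), and DESeq2 called 4 higher and 0 lower (4.82% and 2.44% of all genes). In the Fra2hep mutants 1 member rose, Gsta2, and 0 fell, against 0.845% and 0.22% of all genes. There 1 member was higher and 2 were lower at an unadjusted p under 0.05 (6.6% and 4.86% of all genes), and DESeq2 called 1 higher and 0 lower (2.24% and 0.945% of all genes). The median log2 fold change of the members was 0.35 in Fra1hep (all genes 0.01) and -0.15 in Fra2hep (all genes -0.01). All changes are in bulk tissue, where fewer cells of a type and less RNA per cell cannot be told apart.

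**Figure D2:**
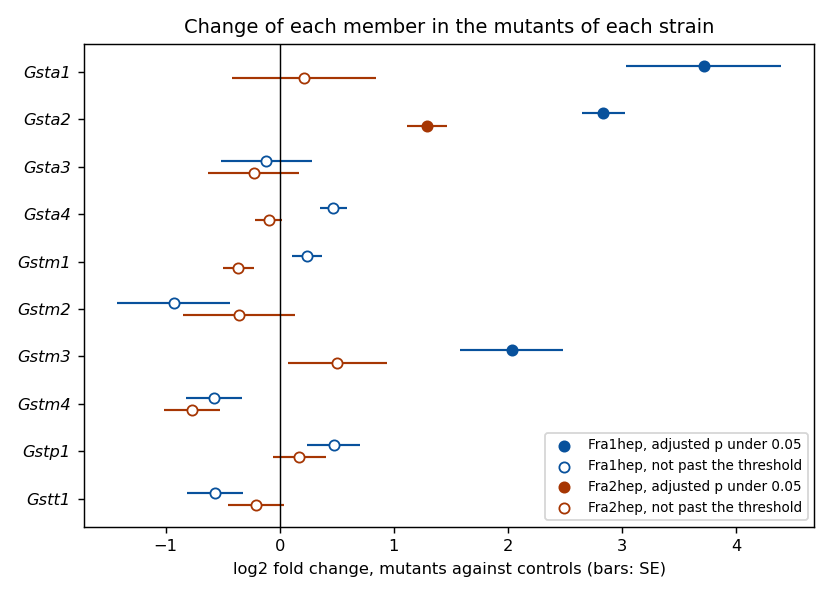
Log2 fold change of mutants against controls (x axis) for each member (y axis), Fra1hep in blue and Fra2hep in brown, with bars for the SE and filled points for an edgeR adjusted p under 0.05. Gsta1, Gsta2 and Gstm3 are filled in Fra1hep and Gsta2 alone is filled in Fra2hep.

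Gsta2 encodes an alpha-class subunit and rose in both strains. In the Fra1hep controls it stood at 6.46, 6.68 and 5.06 CPM, and in the mutants at 40.9, 45.7 and 43.6. The mutants lay far above every control and close to each other. The log2 fold change was 2.84 ± 0.19 (SE), a 7.15-fold rise, with an edgeR adjusted p of 1.61e-05. In the Fra2hep controls it stood at 9.77, 12.7 and 7.94 CPM, and in the mutants at 21.2, 27.8 and 25.4. These groups did not overlap either, and the log2 fold change was 1.29 ± 0.18, a 2.44-fold rise (edgeR adjusted p = 0.00501). Gsta2 kept its call in both strains under every alternative fit and with each of the 12 libraries left out. The effect in Fra2hep was smaller than that in Fra1hep by 1.55 ± 0.25 on the log2 scale, with an unadjusted p of 5.58e-05 but an edgeR adjusted p of 0.0638, so the difference did not pass the threshold. DESeq2 did call it (adjusted p = 4.5e-05), as did edgeR without Fra2hep control 3 (0.0326) and without a filter on low counts (0.0154), while the other fits with 1 library left out gave adjusted p of 0.109 to 0.259. The controls entered this difference too: the 3 Fra2hep controls all lay above the 3 Fra1hep controls for Gsta2 (log2 difference 0.74 ± 0.18, unadjusted p = 0.00168, edgeR adjusted p = 0.866).

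Gsta1, another alpha-class subunit, had the lowest counts of the members. It had 9, 4 and 12 counts in the Fra1hep controls and 54, 152 and 153 in the mutants, which is 0.588, 0.197 and 0.646 CPM against 2.95, 8.01 and 7.77. Every mutant was above every control, with mutant 1 the lowest of the mutants. The log2 fold change was 3.72 ± 0.68 (edgeR adjusted p = 0.0112). The call was lost without Fra1hep control 1 (adjusted p = 0.0521) or control 2 (0.0531). In Fra2hep the controls stood at 1.27, 2.07 and 0.216 CPM and the mutants at 1.23, 1.36 and 1.51, so the mutants lay within the range of the controls (log2 fold change 0.21 ± 0.63, edgeR adjusted p = 0.944). The difference between the strains' effects was -3.51 ± 0.92, with an unadjusted p of 0.00279 and an edgeR adjusted p of 0.454; DESeq2 gave an adjusted p of 0.0333.

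Because Gsta1 and Gsta2 share so much sequence, they were also summed. The summed level was 6.54 CPM ± 0.733 (SD, n = 3) in the Fra1hep controls and 49.6 ± 5.18 in the mutants, a 7.59-fold ratio. In Fra2hep it was 11.3 ± 3.33 in the controls and 26.2 ± 3.43 in the mutants, a 2.31-fold ratio. Adding Gm3776 and Gm10639, the other copies of the locus, gave ratios of 7.70 and 2.28. The copy Gm3776, at 0, 0.0983 and 0.215 CPM in the Fra1hep controls and 1.09, 2.42 and 1.27 in the mutants, was called by itself (log2 fold change 3.79 ± 0.62, edgeR adjusted p = 0.00546). Given that Gsta1 shares 75.7% of its 50-base stretches with Gm3776, the counts of these genes are not independent of each other.

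Gsta4 encodes the alpha-class enzyme known for its activity toward 4-hydroxynonenal, a product of lipid peroxidation. In Fra1hep the controls stood at 61.1, 49.2 and 52.4 CPM and the mutants at 70.1, 84.2 and 70.9. The groups did not overlap, and the log2 fold change was 0.47 ± 0.12, with an unadjusted p of 0.00238 and an edgeR adjusted p of 0.0584, just above the threshold. DESeq2 called it (0.0159), as did edgeR without a scaling factor (0.0115), a setting that moved the median of all genes to 0.15. It was called in 0 of the fits with 1 library left out (edgeR adjusted p of 0.0522 to 0.175). In Fra2hep the values were 61.6, 56.5 and 49.0 CPM in the controls and 53.8, 49.2 and 53.1 in the mutants, which overlapped (log2 fold change -0.10, edgeR adjusted p = 0.831). The strains' effects differed by -0.57 ± 0.17 (unadjusted p = 0.00653), which did not pass after adjustment.

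Gsta3, the alpha-class member that dominates the class in these livers, did not change by the test. Its levels were 1349, 1291 and 1654 CPM in the Fra1hep controls and 1761, 527 and 1672 in the mutants, so mutant 2 stood below the lowest control while the other mutants stood above the highest. The log2 fold change was -0.12 ± 0.40 (edgeR adjusted p = 0.921); it was 0.26 without mutant 2 and 0.03 without a scaling factor, a setting that moved the median of all genes to 0.15. In the library of mutant 2 the 7 pericentral hepatocyte markers summed to 2759 CPM, against 6196 to 8022 in the other Fra1hep mutants and 9735 to 10129 in the controls; their part in the Gsta3 value was not tested. In Fra2hep the controls stood at 1264, 2448 and 2247 CPM and the mutants at 2010, 1248 and 1824, with control 1 and mutant 2 low (log2 fold change -0.23 ± 0.40, edgeR adjusted p = 0.896).

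The class sum followed Gsta3. Summed over Gsta1 to Gsta4, the alpha class had 1492 CPM ± 194 (SD, n = 3) in the Fra1hep controls and 1445 ± 676 in the mutants, and 2053 ± 630 against 1772 ± 396 in Fra2hep, with overlapping groups in both strains. Gsta3 made up 95.9% of the class in the Fra1hep controls and 88.8% in the mutants, where its share ran from 79.3% to 93.9%. These shares are of CPM and are not corrected for length. Gsta3 has 4344 annotated exon bases, against 956 for Gsta1, 1177 for Gsta2 and 1266 for Gsta4. The share of Gsta2 was 0.416% in the Fra1hep controls and 3.83% in the mutants, where it ran from 2.18% to 6.87%. The highest was mutant 2, in which Gsta3 was low, and the mean without it was 2.31%. In the Fra2hep groups the share was 0.527% and 1.48%. Without Gsta3, the class summed to 60.7 CPM ± 6.46 in the Fra1hep controls and 125 ± 12.2 in the mutants, a 2.05-fold ratio, and to 67.0 ± 8.56 and 78.2 ± 1.88 in Fra2hep.

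**Figure D3:**
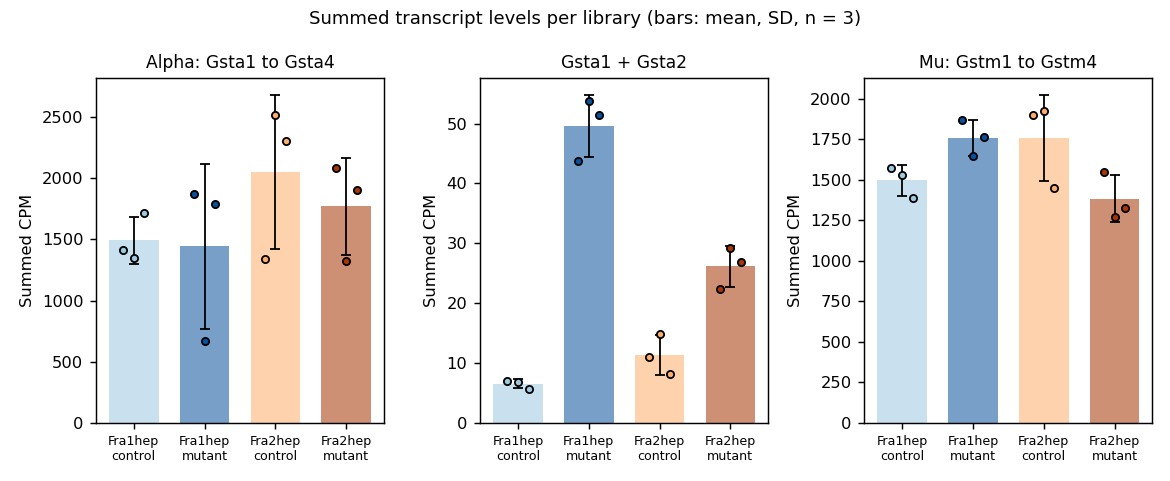
Summed CPM per library (y axis, from 0) in the 4 groups for the alpha class, for Gsta1 plus Gsta2, and for the mu class, with bars at the mean, error bars for the SD and 1 point per library. Gsta1 plus Gsta2 averages 6.54 and 49.6 in the Fra1hep controls and mutants, while the alpha class overlaps between controls and mutants in both strains.

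Gstm3, a mu-class subunit, stood at 23.6, 29.4 and 14.0 CPM in the Fra1hep controls and at 105, 88.8 and 81.0 in the mutants. Every mutant was well above every control. The log2 fold change was 2.03 ± 0.45, a 4.09-fold rise, with an edgeR adjusted p of 0.0318. This call was lost when any 1 of the 6 Fra1hep libraries was left out (adjusted p of 0.0590 without mutant 2 to 0.122 without control 1) and without the filter on low counts (0.124). In Fra2hep the controls stood at 68.1, 82.7 and 35.5 CPM and the mutants at 153, 47.6 and 63.6, with mutant 1 far above the other mutants (log2 fold change 0.50 ± 0.43, edgeR adjusted p = 0.743). The Fra2hep controls all lay above the Fra1hep controls (log2 difference 1.47 ± 0.45, unadjusted p = 0.00733, edgeR adjusted p = 0.866), and the highest of them, 82.7 CPM, lay within the range of the Fra1hep mutants. The difference between the strains' effects was -1.53 ± 0.62 (unadjusted p = 0.0316, edgeR adjusted p = 0.730).

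Gstm1, the main mu-class enzyme of these livers, stood at 1408, 1381 and 1259 CPM in the Fra1hep controls and at 1682, 1497 and 1597 in the mutants. The mutants lay above the controls by a small margin (log2 fold change 0.24 ± 0.14, edgeR adjusted p = 0.418). In Fra2hep the controls stood at 1704, 1593 and 1268 CPM and the mutants at 1274, 1112 and 1162, which overlapped (log2 fold change -0.36 ± 0.14, unadjusted p = 0.0204, edgeR adjusted p = 0.312). The estimates had opposite signs in the strains and differed by -0.60 ± 0.19, with an unadjusted p of 0.00882 and an edgeR adjusted p of 0.554.

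Gstm4 lay below the controls in the mutants of both strains without passing the test in either. It stood at 92.9, 78.6 and 68.8 CPM in the Fra1hep controls and 58.7, 34.8 and 67.3 in the mutants (log2 fold change -0.58 ± 0.25, edgeR adjusted p = 0.266). In Fra2hep it stood at 110, 156 and 106 CPM in the controls and 57.0, 80.5 and 80.7 in the mutants (log2 fold change -0.77 ± 0.25, edgeR adjusted p = 0.220). Controls and mutants did not overlap in either strain, and the Fra2hep controls lay above the Fra1hep controls. Gstm2 stood at 48.6, 39.3 and 45.0 CPM in the Fra1hep controls and 24.8, 27.5 and 17.4 in the mutants, again without overlap (log2 fold change -0.93 ± 0.50, edgeR adjusted p = 0.391). It was called when the fit held only the 6 Fra1hep libraries (0.0433). With 1 library left out it was called in 0 fits (edgeR adjusted p of 0.243 to 0.623). In Fra2hep its levels were 19.1, 91.5 and 41.8 CPM in the controls and 62.6, 33.2 and 23.1 in the mutants (log2 fold change -0.36 ± 0.49, edgeR adjusted p = 0.854).

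The estimates of neighbours on chromosome 3 therefore had mixed signs in Fra1hep. In chromosome order from Gstm5 to Gstm4, the log2 fold changes were 1.17 for Gstm5, 0.54 for Gstm7, 0.37 for Gstm6, 2.03 for Gstm3, -0.93 for Gstm2, 0.24 for Gstm1 and -0.58 for Gstm4. Of these, only Gstm5 and Gstm3 passed the test, and both rose. The negative estimates of Gstm2 and Gstm4 did not pass. The mu class summed over Gstm1 to Gstm4 was 1496 CPM ± 97.0 (SD, n = 3) in the Fra1hep controls and 1760 ± 111 in the mutants, without overlap, a log2 ratio of 0.23. In Fra2hep it was 1758 ± 267 in the controls and 1383 ± 144 in the mutants, with overlap, a log2 ratio of -0.35. Gstm1 made up 85.7% to 90.5% of the class in the group means. Gstm3 made up 1.48% of the class in the Fra1hep controls and 5.20% in the mutants, while Gstm4 made up 5.34% and 3.02%.

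Gstp1, the pi-class enzyme, stood at 552, 513 and 620 CPM in the Fra1hep controls and 688, 667 and 986 in the mutants, without overlap and with mutant 3 the highest (log2 fold change 0.47 ± 0.23, edgeR adjusted p = 0.340). In Fra2hep the controls stood at 767, 443 and 492 CPM and the mutants at 634, 511 and 769, which overlapped (log2 fold change 0.17 ± 0.23, edgeR adjusted p = 0.854). Gstt1, the theta-class enzyme, lay lower in the Fra1hep mutants, at 398, 301 and 300 CPM in the controls and 234, 192 and 248 in the mutants (log2 fold change -0.57 ± 0.25, edgeR adjusted p = 0.276). In Fra2hep the controls stood at 183, 423 and 312 CPM and the mutants at 257, 257 and 282, within the range of the controls (log2 fold change -0.21 ± 0.25, edgeR adjusted p = 0.823). Neither gene passed the test in either strain. The pi class was summed over Gstp1, Gstp2, Gstp3 and Gstp-ps. It had 623 CPM ± 56.1 (SD, n = 3) in the Fra1hep controls and 841 ± 187 in the mutants, without overlap. In Fra2hep it had 626 ± 178 and 684 ± 135, with overlap. The theta sum over Gstt1, Gstt2 and Gstt3 was 449 ± 78.9 in the Fra1hep controls and 299 ± 33.7 in the mutants, without overlap. In Fra2hep it was 432 ± 180 and 360 ± 25.7, with overlap.

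Counted by overlap alone, the 3 Fra1hep mutants lay above the 3 controls for 6 members (Gsta1, Gsta2, Gsta4, Gstm1, Gstm3 and Gstp1) and below them for 3 (Gstm2, Gstm4 and Gstt1), where 11.7% and 9.98% of all genes tested lay so. In Fra2hep the mutants lay above for 1 member, Gsta2, and below for 1, Gstm4, where 9.31% and 8.17% of all genes lay so. No member's effect differed between the strains past the threshold in edgeR (0.0355% of all genes did), although 5 members had an unadjusted p under 0.05 (6.32% of all genes did), all with the smaller or more negative change in Fra2hep. These were Gsta1, Gsta2, Gsta4, Gstm1 and Gstm3, of which DESeq2 called Gsta1 and Gsta2 (0.49% of all genes).

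**Figure D4:**
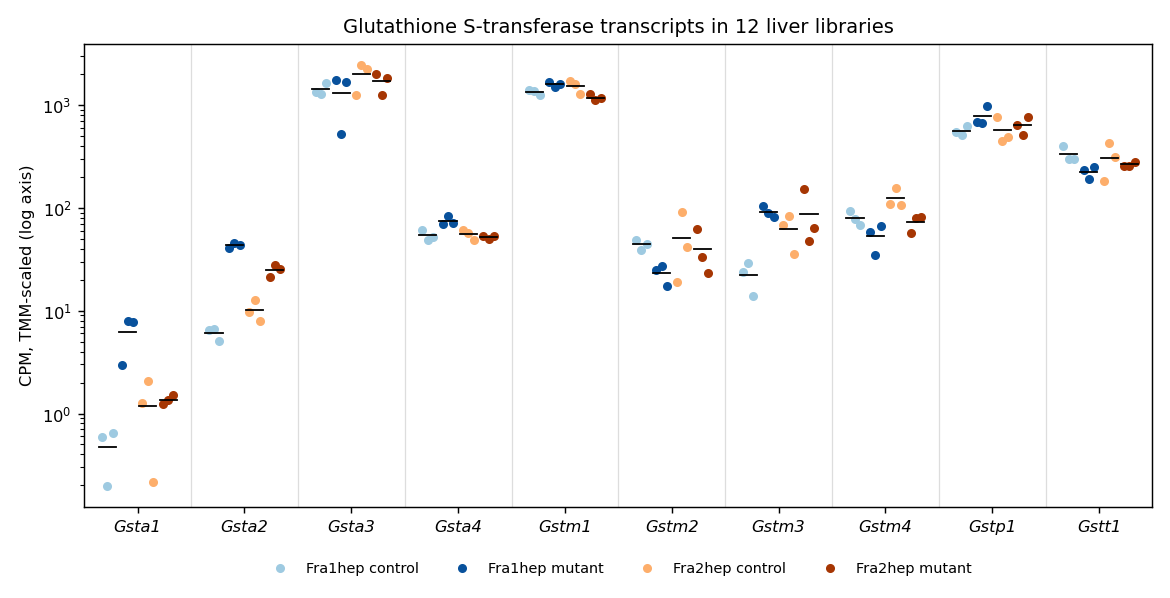
CPM of each member (log y axis) in the 12 libraries, 1 point per library, coloured by group, with a black line at the group mean. Gsta2 lies at 5.06 to 6.68 CPM in the Fra1hep controls and at 40.9 to 45.7 in the mutants, while Gsta3 and Gstm1 stay near the top of the axis in all 4 groups.

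The order of the members by level was compared per kilobase of annotated exon, since longer transcripts give more counts. In the Fra1hep controls the mean CPM per kilobase was 916 for Gstm1, 363 for Gstp1, 330 for Gsta3, 218 for Gstt1, 46.9 for Gstm4, 42.8 for Gsta4, 26.4 for Gstm2, 17.1 for Gstm3, 5.16 for Gsta2 and 0.499 for Gsta1. Of the neighbours in this order, Gstp1 and Gsta3 overlapped in their libraries, as did Gstm4 and Gsta4, and the other neighbours did not. In the Fra1hep mutants Gstm3 moved from rank 8 to rank 5 of 10 (69.8 CPM per kilobase) and Gsta2 from rank 9 to rank 7 (36.9), while Gstm4 stood at rank 8 (31.4) and Gstm2 at rank 9 (13.8). In these mutants the libraries of Gstm3 overlapped those of Gsta4, the next in order, those of Gsta2 overlapped those of Gstm4, and those of Gsta3 overlapped those of Gstt1. In the Fra2hep controls the order of the less abundant members was closer, and the libraries of Gstm4, Gstm3, Gsta4 and Gstm2 overlapped from each to the next. Gstm1 ranked first and Gsta1 last in all 4 groups. The scale divides by all annotated exon bases, including stretches shared with other genes. Such stretches made up 90.5% of the 50-base stretches of Gsta1 and 49.8% of those of Gsta2. How shared reads were counted is not known, so the levels and ranks of these genes are uncertain. The annotated exons of Gsta3 add up to 4344 bases, more than for any other member, which lowers its value on this scale.

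Levels were also compared between the strains' control mice. For 3 members, Gsta2, Gstm3 and Gstm4, each Fra2hep control lay above each Fra1hep control, where 5.28% of all genes tested lay so. The test called 0 members and 0 genes in all (0% of genes; 3 members and 753 genes, 5.35% of all, had an unadjusted p under 0.05, and DESeq2 called 0 members and 18 genes, 0.128% of all). The estimate was positive for 9 of the 10 members, with a median log2 difference of 0.34 (all genes 0.01). Fosl2 stood at 12.2 to 48.1 CPM in these controls, against 8.65 to 10.1 in the Fra1hep controls (edgeR adjusted p = 0.866), and its part in the members' levels was not tested.

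The rest of the enzyme family was described from a list of 19 other transferase genes, including the membrane-bound Mgst genes, of which 15 were tested. In Fra1hep 2 rose, Gm3776 and Gstm5, and 0 fell by edgeR (2.9% and 0.938% of all genes). At an unadjusted p under 0.05, 3 were higher and 2 lower (9.95% and 6.36% of all genes). DESeq2 called 3 higher and 2 lower (4.82% and 2.44% of all genes). Gstm5 stood at 10.4, 9.73 and 9.47 CPM in the controls and 19.7, 22.4 and 24.6 in the mutants (log2 fold change 1.17 ± 0.21, edgeR adjusted p = 0.00980). In Fra2hep 1 fell, Gstp3, and 0 rose by edgeR (0.22% and 0.845% of all genes). At an unadjusted p under 0.05, 2 were higher and 3 lower (6.6% and 4.86% of all genes). DESeq2 called 0 higher and 1 lower (2.24% and 0.945% of all genes). Gstp3, a pi-class gene, stood at 18.0, 36.9 and 27.9 CPM in the Fra2hep controls and 13.8, 11.2 and 11.5 in the mutants (log2 fold change -1.18 ± 0.25, edgeR adjusted p = 0.0479). This call was lost when any of 10 of the 12 libraries was left out (highest adjusted p 0.184, without Fra2hep mutant 2). In Fra1hep its log2 fold change was -0.87 (edgeR adjusted p = 0.0774). The median log2 fold change of the 15 genes was 0.09 in Fra1hep and 0.03 in Fra2hep.

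Genes that supply glutathione, use it or export its conjugates, and other phase II enzymes, were described in 4 lists. In Fra1hep edgeR called 1 gene of each list higher, and 2.9% of all genes. Of 6 tested genes of glutathione synthesis, 1 rose in Fra1hep, Gss, the enzyme of the last step, from 82.5, 81.7 and 89.3 CPM to 133, 169 and 135 (log2 fold change 0.79 ± 0.17, edgeR adjusted p = 0.0226). Gclc and Gclm, the subunits of the rate-limiting ligase, had log2 fold changes of 0.25 and -0.01 in Fra1hep and did not pass. Of 19 genes of glutathione reduction, peroxidases and turnover, 1 rose in Fra1hep, Pgd, an NADPH-producing enzyme of the pentose phosphate pathway (log2 fold change 1.32 ± 0.23, edgeR adjusted p = 0.00835). Of 9 genes of conjugate efflux and processing, 1 rose, Abcc4, an export pump (log2 fold change 2.36 ± 0.39, edgeR adjusted p = 0.00590); the Fra2hep controls already stood at 2.40 to 5.18 CPM of Abcc4, against 0.646 to 1.23 in the Fra1hep controls and 3.66 to 6.06 in the Fra1hep mutants. Of 18 other phase II enzymes, 1 rose, Ephx1, the microsomal epoxide hydrolase (log2 fold change 0.66 ± 0.15, edgeR adjusted p = 0.0311), while Nqo1, a commonly used Nrf2 target, did not pass (0.60 ± 0.48, adjusted p = 0.587). In Fra1hep 2 genes of each list were higher at an unadjusted p under 0.05 (9.95% of all genes). DESeq2 called 1, 2, 1 and 2 higher (4.82% of all genes). By edgeR 0 genes of these 4 lists fell in Fra1hep (0.938% of all genes). At an unadjusted p under 0.05, 0, 2, 0 and 1 were lower (6.36% of all genes). DESeq2 called 0, 0, 0 and 1 lower (2.44% of all genes).

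In Fra2hep edgeR called 0 genes of these 4 lists in either direction (0.845% of all genes were higher and 0.22% lower). At an unadjusted p under 0.05, 1, 2, 1 and 0 were higher (6.6% of all genes). In the same lists 0, 2, 0 and 0 were lower (4.86% of all genes). DESeq2 called 0, 2, 0 and 0 higher (2.24% of all genes) and 0, 1, 0 and 0 lower (0.945%). Of the calls in Fra1hep, those of Gss and Ephx1 were lost with some single libraries left out, with adjusted p of up to 0.0987 for Gss and 0.146 for Ephx1, both without Fra1hep control 1.

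Among 11 tested regulators of transferase genes, 1 rose in each strain and it was the same gene, Mafk, a small Maf protein. Of all genes, edgeR called 2.9% higher in Fra1hep and 0.845% in Fra2hep. At an unadjusted p under 0.05, 1 regulator was higher and 1 lower in each strain. Of all genes, 9.95% and 6.36% were so in Fra1hep, and 6.6% and 4.86% in Fra2hep. DESeq2 called 1 regulator higher and 0 lower in each strain. It called 4.82% and 2.44% of all genes in Fra1hep, and 2.24% and 0.945% in Fra2hep. Estimates were positive for 5 of the 11 in each strain. The summed regulators overlapped in Fra1hep. In Fra2hep they stood at 967 to 1151 CPM in the controls and 722 to 903 in the mutants. Mafg, another small Maf, was not called. It stood at 85.9, 103 and 84.9 CPM in the Fra1hep controls and 81.1, 66.4 and 72.6 in the mutants. Mafk stood at 17.2, 14.0 and 12.1 CPM in the Fra1hep controls and 53.4, 47.4 and 45.8 in the mutants (log2 fold change 1.76 ± 0.21, edgeR adjusted p = 0.000657). In Fra2hep it stood at 14.0, 19.4 and 11.98 CPM in the controls and 27.8, 41.5 and 38.3 in the mutants (log2 fold change 1.25 ± 0.20, edgeR adjusted p = 0.0161). The Fra2hep call was lost with some single libraries left out (highest adjusted p 0.0691, without Fra2hep mutant 3). Nfe2l2, which encodes Nrf2, had log2 fold changes of 0.38 and 0.04 and did not pass in either strain. None of these context lists had a gene called by edgeR for the difference between the strains (0.0355% of all genes were).

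Marker genes of cell types and liver zones moved with the same groups in part. Of all genes, edgeR called 2.9% higher and 0.938% lower in Fra1hep, and 0.845% and 0.22% in Fra2hep. At an unadjusted p under 0.05 these shares were 9.95% and 6.36% in Fra1hep, and 6.6% and 4.86% in Fra2hep. DESeq2 called 4.82% and 2.44% in Fra1hep, and 2.24% and 0.945% in Fra2hep. In Fra1hep the summed level of 5 stellate cell markers was 190 to 220 CPM in the controls and 300 to 344 in the mutants, with 4 of 5 positive and 1 called higher, Dcn (log2 fold change 0.86, edgeR adjusted p = 0.00239). The 6 periportal markers summed to 2703 to 3221 CPM in the controls and 3369 to 4371 in the mutants, with 4 of 6 positive and 1 called higher, Cdh1 (edgeR adjusted p = 0.0256, up to 0.121 with single libraries left out). The 7 pericentral markers were lower in the sum, at 2759 to 8022 CPM in the mutants and 9735 to 10129 in the controls. With 0 of 7 positive, their median log2 fold change was -0.67. By edgeR 0 of them were called (5 lower at an unadjusted p under 0.05, and 2 by DESeq2). The 7 hepatocyte markers overlapped in the sum, with 2 of 7 positive. None of these was called by edgeR (2 higher and 1 lower at an unadjusted p under 0.05, and 1 and 0 by DESeq2). The 5 erythroid markers summed to 287 to 394 CPM in the controls and 155 to 244 in the mutants, a drop that lay in Alas2 (mean 229 and 66.7 CPM, edgeR adjusted p = 0.0831). The other 4, all globins, had positive log2 fold changes of 0.05 to 0.22; edgeR called 0 of the 5 (1 lower at an unadjusted p under 0.05, and 1 by DESeq2). In Fra2hep the stellate sum was 282 to 298 CPM in the controls and 213 to 279 in the mutants, with 1 of 5 markers positive and 0 called by edgeR (1 lower at an unadjusted p under 0.05, and 0 by DESeq2). The hepatocyte sum was 107923 to 130785 CPM and 64634 to 80129, most of it Alb (mean 92123 and 44438 CPM), but 4 of the 7 markers were positive, among them Apob (3829 and 7044 CPM), and their median log2 fold change was 0.01. None of the 7 was called by edgeR (1 higher and 3 lower at an unadjusted p under 0.05, and 1 and 2 by DESeq2). The pericentral sums overlapped, with 4 of 7 markers positive and a median of 0.02. By edgeR 0 of them were called (1 higher at an unadjusted p under 0.05, and 1 by DESeq2). Of the 6 periportal markers, 5 were positive, with a median of 0.26 and overlapping sums, and 1 fell, Hsd17b13 (log2 fold change -0.92, edgeR adjusted p = 0.0165, up to 0.0845 with single libraries left out and 0.0708 with only the libraries compared). Biliary, Kupffer cell, sinusoidal endothelial and lymphocyte sums overlapped between controls and mutants in both strains, and edgeR called 0 of their genes (1 lymphocyte marker in Fra1hep and 1 endothelial marker in Fra2hep had an unadjusted p under 0.05, and DESeq2 called 0). The part of these shifts in the transferase levels was not tested.

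The genes whose levels followed the class sums most closely over the 12 libraries were listed as a description, from 11726 protein-coding genes. For the alpha sum, which is mostly Gsta3, these were Slc25a21 (Pearson r = 0.89), Plscr2 (0.88) and Tmie (0.87). For the mu sum, which is mostly Gstm1, they were Cdkn2d (0.93), Dtwd1 (0.88) and Pot1a (0.87). The points share their libraries and scaling factors, and within groups the values were 0.90, 0.91 and 0.86 for the alpha sum and 0.94, 0.79 and 0.82 for the mu sum. All are for genes picked as the highest of 11726 over only 12 libraries. The within-group values reuse the libraries that picked the genes, so they are no separate check.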

How the data were processed

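Polyadenylated RNA from 12 livers was made into dUTP-stranded libraries, per the labels' protocols. The values are raw counts per gene, in whole numbers as deposited by the authors. The submitters' processing notes name STAR 2.6.1a, RSEM, bedtools 2.27.1, DESeq2 1.22.2 and the build GRCm38 (mm10). No source used here gives the annotation, the strand setting or the handling of ambiguous reads. Groups came from the titles. The mice were separate littermates, and no pair of libraries agreed within sampling noise.

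Counts were analysed in R 4.3.3 with edgeR 4.0.16 (filterByExpr, TMM factors, robust quasi-likelihood fit of all 12 libraries with 4 group means, two-sided tests, Benjamini-Hochberg adjustment over 14076 genes). The tests compared mutants with controls by strain, and gave the Fra2hep effect minus the Fra1hep effect, and Fra2hep against Fra1hep controls. Standard errors come from the test statistic. Sums and per-kilobase levels are of CPM, as mean ± SD, with no test; the precision rests on totals of 16834041 to 20464807 counts per library. Alternatives were RLE factors, no scaling, DESeq2 1.42.0, voom with limma 3.58.1, no filter, at least 1 CPM in 3 libraries, only the libraries compared, a replicate block, each library left out and, added after seeing the data, Fra1hep mutant 2 and Fra2hep control 1 left out together and class sums with further annotated copies. Of 55421 identifiers, 55154 matched GENCODE M21 without their version. The script was tested on simulated data.

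The members and the gene lists were chosen with earlier results of these data known. Named beside the members are Fosl1 and Fosl2, up to 4 called genes per list with the smallest adjusted p, and the 3 protein-coding genes most like the alpha sum and the mu sum. Further genes named in the lists (Gclc, Gclm, Nqo1, Nfe2l2, Mafg, Gstm6, Gstm7, Alas2, Alb and Apob) were chosen after their values were seen. Figures were drawn with matplotlib 3.10.9 in Python 3.11.15.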

Additional observations from a re-analysis of the deposited data

How the results depend on the processing

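Over all alternatives, Gsta2 stayed called in both strains. The number of members called in Fra1hep (3) ran from 1 to 3 with 1 library left out, the 1 being without Fra1hep control 1 or control 2, and the number in Fra2hep (1) stayed at 1; for the difference (0) it was 2 with DESeq2, 1 without a filter and 0 to 1 with 1 library left out, and for the controls it stayed at 0. Over all genes, calls in Fra1hep (540) were 1021 with DESeq2 and 267 (without control 1) to 582 with 1 library left out; without a scaling factor 86.9% of calls were higher, against 75.6%. Calls in Fra2hep (150) were 448 with DESeq2, 90 with only the libraries compared and 53 (without mutant 3) to 184 with 1 library left out. Calls for the difference (5) were 69 with DESeq2, 9 without a filter, 1 with Fra1hep mutant 2 and Fra2hep control 1 left out together, and 0 to 13 with 1 left out; for the controls (0) they were 18, 3 and 0 to 1 with DESeq2, no filter and 1 left out. The mu sum in Fra1hep had a log2 ratio of 0.38 without scaling and 0.18 to 0.28 with 1 library left out, against -0.47 to -0.28 in Fra2hep; the alpha sum ran from -0.28 to 0.30 and from -0.44 to -0.04.

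The replicate number as a block left 98 calls in Fra2hep, and 3 and 1 members called in the strains. Same-numbered samples correlated at -0.17 to 0.09, and 4 of 12 samples correlated best with their own number, so the numbers were not taken to pair the mice. Under the block, adjusted p rose past the threshold for Gstm5 (0.0675), Gss (0.0682), Ephx1 (0.111) and Cdh1 (0.0551) in Fra1hep and for Gstp3 (0.155) in Fra2hep.

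Estimates that changed sign were all of members that were not called, and the cause was not tested. In Fra1hep, Gsta3 was 0.030 without scaling, 0.26 with the 2 libraries left out together and -0.39 to 0.26 with 1 left out. In Fra2hep with 1 left out, Gsta1 ran from -0.29 to 0.88, Gstm2 from -0.85 to 0.38, Gstm3 from -0.16 to 0.80 and Gstt1 from -0.47 to 0.10. For the difference, Gsta3 was 0.10 with limma-voom, 0.085 with the replicate block and -0.49 to 0.15 with 1 left out, Gstm4 -0.42 to 0.017 with 1 left out, and Gstt1 -0.0023 with the 2 left out. For the controls, Gstm2 was -0.078 and Gstp1 -0.024 with limma-voom; with the 2 left out Gsta4 was -0.038, Gstp1 -0.26 and Gstt1 0.14; with 1 left out Gsta4 ran from -0.038 to 0.14, Gstm2 from -0.54 to 0.59, Gstp1 from -0.26 to 0.16 and Gstt1 from -0.43 to 0.14.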
